A study of Rattus norvegicus and Bos taurus with 6 samples.

Results

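The genes described here were 10 genes used as markers of the stromal progenitors of fat, matched by symbol in any case: Dpp4 and Pi16, treated as one type, and Dcn, Fbn1, Mfap5, Bicc1, Scara5, Ddr2, Itga11 and Fmo2, treated as the other 8. All 10 were found in the gene list of each of 6 single-nucleus RNA-seq libraries, in which between 16208 and 33585 genes had at least 1 unique molecular identifier (UMI, a tag that counts 1 captured RNA molecule). The values are UMI counts per gene and nucleus. Plin1, a lipid droplet coat protein of adipocytes, Msln, a surface protein of mesothelium, and Ptprb, a receptor phosphatase of endothelium, were followed as partners from other cell types.

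Fat tissue holds, beside adipocytes, fibroblast-like stromal cells that include the progenitors of new adipocytes. Cells carrying DPP4 and PI16 are described in other work as an early, uncommitted type in the fibrous tissue around fat lobules, and several extracellular matrix genes mark stromal cells more widely. In the same tissue, mesothelium covers depots of the body cavities, and endothelium and pericytes line the vessels, so a gene read in whole tissue can come from more than 1 cell type.

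Of the 6 libraries, 5 came from rats and 1 from a cow. The rats were males of the Dahl salt-sensitive strain SS/HsdMcwiCrl on a normal diet, and their tissues were mesenteric perivascular adipose tissue (mesPVAT), retroperitoneal fat (RP fat), the perivascular fat of the thoracic aorta (taPVAT) and subscapular brown fat (BAT). The cow was a lactating Holstein, sampled in the subcutaneous white fat of the flank (cow WAT). One mesPVAT library was made with 10x Genomics chemistry from sorted nuclei in a first batch, and the other 5 libraries were made with Parse Evercode chemistry from fixed nuclei in a second batch. Between the pair of mesPVAT libraries, the platform, batch, isolation protocol and genome build cannot be told apart. Among the Parse libraries, the paper spun taPVAT homogenates at a lower speed than rat white and cow fat, and gave no speed for BAT. Only the cow samples passed a further, finer filter.

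Each condition was 1 library, so no difference between conditions could be tested, and there is no replicate error. The intervals given are exact 95% intervals (Poisson for levels, binomial for shares, conditional binomial for ratios) and cover counting error only. Levels are in CPM, the UMIs of a gene scaled to a common total for the library or group (counts per 1000000 UMIs). In the whole tissue, fewer cells of a type and less RNA per cell cannot be told apart.

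The libraries held 2297 to 5887 nuclei and 845316 to 16827260 UMIs. The median nucleus had 161 UMIs in the 10x mesPVAT library, 346 in Parse mesPVAT, 213 in RP fat, 1246 in taPVAT, 3530 in cow WAT and 1706 in BAT. For the Parse mesPVAT and RP fat libraries, the paper saw no clear break between nuclei and background in the UMIs per barcode. It read this as difficulty in telling true nuclei from free RNA. Here each deposited barcode is counted as a nucleus. No cell barcode was shared between any of the 15 pairs of libraries. The names of the Parse mesPVAT and RP fat libraries are those of their deposited labels. The study's own summary orders these 2 depots the other way for genes per nucleus, so each comparison between them carries that doubt about the labels. Plin1, the adipocyte marker, was present in each tissue, at 164 CPM in cow WAT and between 478 and 2501 CPM in the rat libraries.

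The upstream sequence is shown for 3 of the genes. Their levels differed in different ways between depots: Dpp4 was low in taPVAT, BAT and cow WAT, Mfap5 was highest in cow WAT, and Itga11 was highest in RP fat. RefSeq promoter windows of the rat build GRCr8 were found for 7 of the 10 genes, and not for Dcn, Scara5 and Ddr2. Those of Pi16, Fbn1, Bicc1 and Fmo2 lay partly or wholly inside the annotated gene, so they are not shown. For Dpp4, Mfap5 and Itga11 the 250 bases lie directly upstream of the annotated gene, outside its exons and introns. The windows are chr3:67452423-67452672 on the minus strand for Dpp4, chr4:157399669-157399918 on the plus strand for Mfap5 and chr8:72041182-72041431 on the plus strand for Itga11. They are written 5′ to 3′ along the gene, with matches of the searched motifs in capitals.
Dpp4: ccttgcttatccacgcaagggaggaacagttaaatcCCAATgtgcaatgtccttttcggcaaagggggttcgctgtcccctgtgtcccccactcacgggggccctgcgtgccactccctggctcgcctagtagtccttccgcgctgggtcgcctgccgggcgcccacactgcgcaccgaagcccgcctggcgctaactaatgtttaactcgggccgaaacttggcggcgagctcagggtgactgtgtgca
Mfap5: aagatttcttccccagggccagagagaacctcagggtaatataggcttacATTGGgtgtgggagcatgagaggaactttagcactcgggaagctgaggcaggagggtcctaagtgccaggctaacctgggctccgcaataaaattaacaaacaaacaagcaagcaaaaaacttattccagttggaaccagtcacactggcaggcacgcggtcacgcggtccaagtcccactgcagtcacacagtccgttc
Itga11: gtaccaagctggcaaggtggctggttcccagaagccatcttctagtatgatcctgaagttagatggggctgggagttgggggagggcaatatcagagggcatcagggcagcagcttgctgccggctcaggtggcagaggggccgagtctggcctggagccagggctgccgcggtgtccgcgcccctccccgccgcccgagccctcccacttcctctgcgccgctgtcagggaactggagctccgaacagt
The searched motifs, read on both strands, were the TATA box (letters TATAAA), the CCAAT box, the motif of AP-1 factors (letters TGANTCA) and that of TEAD factors (letters GGAATG). The Dpp4 and Mfap5 windows each held 1 CCAAT match, that of Mfap5 on the opposite strand and so written ATTGG, and the Itga11 window held none of the motifs. Over 33469 windows of the same length, 34.0% held the CCAAT box, 12.9% the TATA box, 12.1% the TEAD motif and 6.34% the AP-1 motif. The GC content was 62.4% for Dpp4, 51.6% for Mfap5 and 65.2% for Itga11, beside a median of 51.2% over these windows.

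BAT had the lowest level of 9 of the 10 genes, with an interval apart from that of the next library for each of the 9, and Fmo2 was the exception. Summed over the 10 genes, the level was 2095 CPM in 10x mesPVAT, 1173 in Parse mesPVAT, 968 in RP fat, 862 in taPVAT, 2491 in cow WAT and 359 in BAT. The sums rest on 2593, 1944, 818, 4396, 41919 and 2268 UMIs. Cow WAT was highest for 5 genes, Dcn, Fbn1, Mfap5, Scara5 and Ddr2, and 10x mesPVAT was highest for Dpp4, Pi16 and Bicc1. The summed level of the 9 stromal cell markers used to group nuclei (10 in the cow) was also lowest in BAT, at 548 CPM, and highest in cow WAT, at 3632. Between these it was 2048 CPM in 10x mesPVAT, 1980 in RP fat, 1796 in Parse mesPVAT and 1156 in taPVAT. RP fat was thus above Parse mesPVAT for these markers and below it for the 10 genes.

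**Figure D1:**
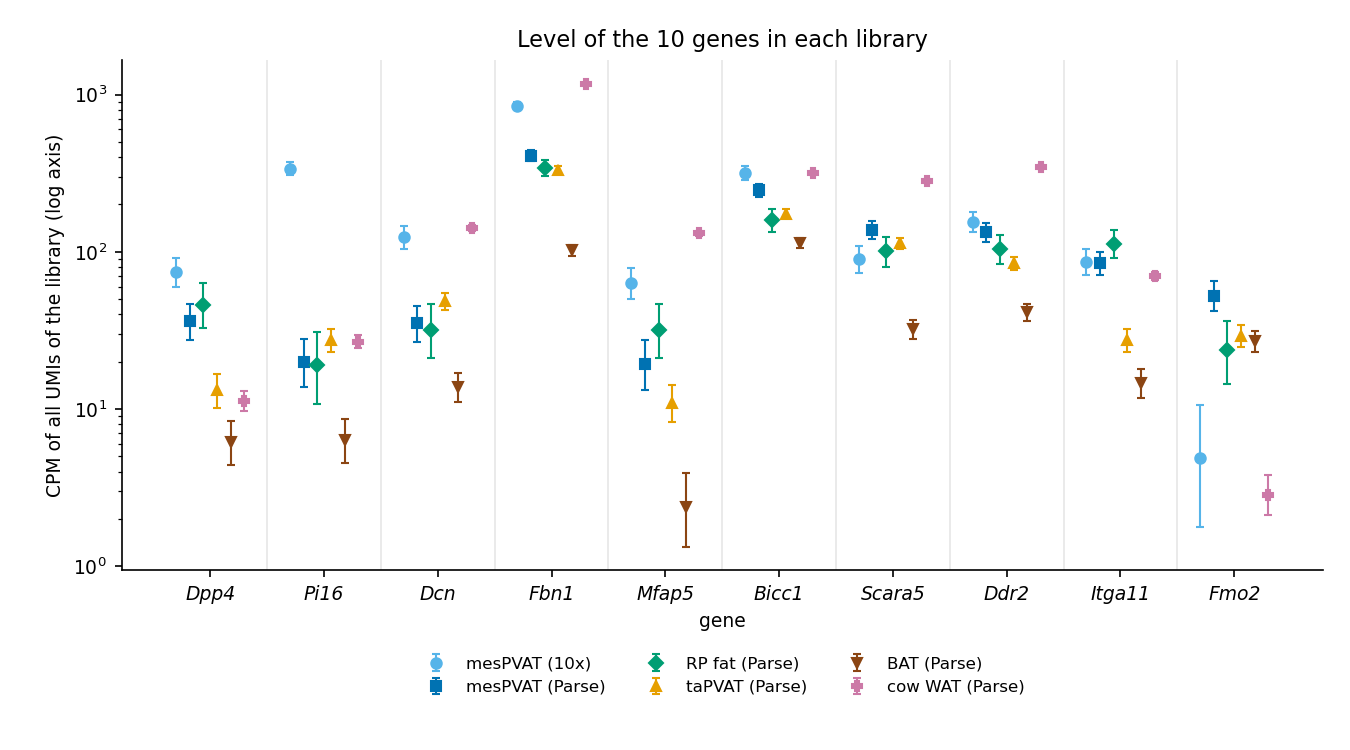
Level of each of the 10 genes in the 6 libraries, as CPM of all UMIs of the library on a log axis. Points are single libraries and bars are exact 95% Poisson intervals for counting error only. The BAT points are the lowest for every gene but Fmo2, and the 10x mesPVAT point for Pi16, at 338 CPM, stands above the other 5, which lie between 6.33 and 27.4 CPM.

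Dpp4 and Pi16 encode proteins of the early progenitor type, DPP4 a peptidase on the cell surface and PI16 a peptidase inhibitor. Dpp4 was at 74.3 CPM in 10x mesPVAT (95% interval 59.9 to 91.2, 92 UMIs), 46.1 in RP fat, 36.2 in Parse mesPVAT, 13.1 in taPVAT, 11.2 in cow WAT and 6.17 in BAT (4.39 to 8.44, 39 UMIs). The intervals overlapped between 10x mesPVAT and RP fat, between RP fat and Parse mesPVAT, and between taPVAT and cow WAT. Pi16 was at 338 CPM in 10x mesPVAT (306 to 372, 418 UMIs), 27.4 in taPVAT, 26.9 in cow WAT, 19.9 in Parse mesPVAT, 18.9 in RP fat and 6.33 in BAT. Its neighbours from taPVAT down to RP fat overlapped, and 10x mesPVAT and BAT stood apart at the ends. Dpp4 and Pi16 together made up 19.7% of the UMIs of the 10 genes in 10x mesPVAT and between 1.53% (cow WAT) and 6.72% (RP fat) in the other libraries.

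A further 4 of the genes belong to the extracellular matrix or bind it: DCN is a small proteoglycan on collagen fibrils, FBN1 the main protein of microfibrils, MFAP5 a partner of fibrillin, and ITGA11 the alpha chain of a collagen-binding integrin. Fbn1 had the most UMIs of the 10 in 5 libraries, at 1164 CPM in cow WAT, 843 in 10x mesPVAT, 409 in Parse mesPVAT, 339.5 in RP fat and 333 in taPVAT. BAT had 102 CPM of Fbn1, and there Bicc1 was counted more often. Dcn was at 142 CPM in cow WAT and 124 in 10x mesPVAT, whose intervals overlapped, and then fell away to 48.4 in taPVAT, 35.0 in Parse mesPVAT, 31.9 in RP fat and 13.8 in BAT. Mfap5 had the widest range of the 4, from 131 CPM in cow WAT over 63.0 in 10x mesPVAT, 31.9 in RP fat, 19.3 in Parse mesPVAT and 11.0 in taPVAT to 2.37 in BAT, where it rests on 15 UMIs. Itga11 followed another order. RP fat had 112 CPM, 10x mesPVAT 86.5, Parse mesPVAT 85.1 and cow WAT 69.9, each overlapping the next, and taPVAT (27.4) and BAT (14.6) were lower and apart.

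Ddr2 encodes a receptor tyrosine kinase for collagen, Scara5 a ferritin receptor of the scavenger receptor family, and Bicc1 an RNA-binding protein. Ddr2 was at 345 CPM in cow WAT, 155 in 10x mesPVAT, 133 in Parse mesPVAT, 104 in RP fat, 84.7 in taPVAT and 41.3 in BAT. Scara5 was at 283 CPM in cow WAT and between 89.7 and 138 CPM in the 4 rat white and perivascular libraries, whose neighbours overlapped, against 32.1 in BAT. Bicc1 varied least, from 318 CPM in 10x mesPVAT and 316 in cow WAT over 246, 175 and 159 in Parse mesPVAT, taPVAT and RP fat to 113 in BAT.

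Fmo2, a flavin monooxygenase, ran the other way round. It was at 52.5 CPM in Parse mesPVAT (87 UMIs), 29.2 in taPVAT, 27.1 in BAT and 23.7 in RP fat. It was lowest in 10x mesPVAT, at 4.85 (95% interval 1.78 to 10.6, 6 UMIs), and in cow WAT, at 2.85 (2.10 to 3.78, 48 UMIs), where the intervals overlapped.

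Levels of different genes were also set out per kilobase of the gene's span in GRCr8, since nuclear RNA holds introns. Whether UMIs scale with span in these libraries was not tested. The division by itself raises short genes and lowers long ones, and the 10x library was aligned to another build. On that scale Pi16, a gene of 9265 bases, led in 10x mesPVAT with 36.5 CPM per kb, ahead of Fbn1 with 4.29, and it led in RP fat (2.04) and taPVAT (2.96) as well. Fmo2 led in Parse mesPVAT (2.34) and BAT (1.20). Dpp4 was the lowest of the 10 in Parse mesPVAT (0.444), RP fat (0.565), taPVAT (0.161) and BAT (0.0756).

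The share of nuclei with at least 1 UMI depends on depth, so each nucleus was also thinned to 200 UMIs. This left out 3788 nuclei of 10x mesPVAT, 476 of Parse mesPVAT and 1302 of RP fat, and none of the other libraries. Before thinning, 21.5% of nuclei had any of the 10 genes in 10x mesPVAT, 33.5% in Parse mesPVAT, 20.7% in RP fat, 41.7% in taPVAT, 84.2% in cow WAT and 33.5% in BAT. After thinning the shares were 19.8%, 20.1%, 18.2%, 13.6%, 26.8% and 7.30%. BAT was then lowest, as it was by CPM. Dpp4 or Pi16 was seen in 4.29% of thinned nuclei in 10x mesPVAT and in between 0.333% (BAT) and 1.46% (RP fat) in the other libraries.

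Between taPVAT and BAT, made on one platform and in one batch, the genes were higher in taPVAT. Of the 10 genes, 7 were at least 2-fold higher in taPVAT and 0 lower, beside 4.69% of 16285 genes that were 2-fold higher and 0.706% that were 2-fold lower. Ratios above 1 were found for all 10, with a median of 2.70. Mfap5 was 4.62-fold higher (95% interval 2.58 to 8.81), Pi16 4.34-fold (3.03 to 6.33), Dcn 3.52-fold, Scara5 3.51-fold, Fbn1 3.26-fold (2.98 to 3.58), Dpp4 2.13-fold (1.41 to 3.24) and Ddr2 2.05-fold. Itga11 (1.89), Bicc1 (1.54) and Fmo2 (1.08) were under 2-fold, and the interval of Fmo2 held 1. Plin1 had a ratio of 0.974 and Ptprb of 0.811. Markers of some other cell types were higher in taPVAT as well: the mesothelial list summed to 175 CPM in taPVAT and 75.2 in BAT (8 and 7 of its 8 genes with a UMI), the macrophage list to 255 and 98.4 and the lymphocyte list to 87.1 and 41.9. Lower in taPVAT were the pericyte and smooth muscle (735 and 1077), endothelial (1717 and 2103), adipocyte (5010 and 5400) and Schwann (25.3 and 25.8) lists. The stromal list summed to 1156 and 548 CPM. The part of these cell types in the ratios was not tested.

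The same direction was seen in parts of each library. In the 3 first-round wells of taPVAT, which hold nuclei of the same sample, the sum of the 10 genes was between 781 and 1002 CPM, and in the 3 wells of BAT between 309.5 and 418 CPM. Stromal-like nuclei, grouped as described below by genes outside the 10, were 9.86% of taPVAT nuclei and 4.45% of BAT nuclei. Their part in the whole-tissue ratios was not tested. Within the stromal-like nuclei, Fbn1 was at 2456 CPM in taPVAT and 1477 in BAT, Scara5 at 760.3 and 371, Dcn at 340 and 191 and Pi16 at 159 and 41.9, in BAT from 7 UMIs. Itga11 (164 and 155), Ddr2 (598.5 and 652) and Bicc1 (1000.2 and 825) had overlapping intervals there. Fmo2 was at 59.3 in taPVAT and 132 in BAT, from 22 UMIs in each, and its intervals overlapped too.

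Between Parse mesPVAT and RP fat the genes were close. Fmo2 alone of the 10 was past 2-fold, at 2.22-fold higher in mesPVAT (95% interval 1.35 to 3.81), and 0 were 2-fold lower, beside 6.06% of 15073 genes higher and 7.52% lower. Among nuclei of at least 500 UMIs the counts were 0 higher and 1 lower, and the share over all genes was not computed there. Fmo2 was at 16.1 and 38.6 CPM in the 2 wells of RP fat, from 9 and 11 UMIs. The median ratio was 1.15. Bicc1 (1.55, interval 1.27 to 1.90), Scara5 (1.37, 1.06 to 1.78) and Fbn1 (1.21, 1.05 to 1.39) had intervals above 1 and Itga11 (0.757, 0.580 to 0.993) one below 1. Dpp4 (0.785), Pi16 (1.05) and Mfap5 (0.605) rest on 16 to 60 UMIs a library, and their intervals held 1.

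Between the 10x and Parse libraries of mesPVAT, 5 of the 10 genes were at least 2-fold higher in 10x and 1 was lower, beside 24.2% of 10829 genes higher and 29.1% lower. Pi16 was 17.0-fold higher (95% interval 11.9 to 25.0), Dcn 3.53-fold, Mfap5 3.26-fold, Fbn1 2.06-fold and Dpp4 2.05-fold (1.47 to 2.89). Fmo2 was lower, with a ratio of 0.0923 (0.0330 to 0.209). With the study's filters on nuclei, or by the mean of CPM per nucleus, 3 genes were higher instead of 5. The share over all genes was not computed in these settings. The stromal marker list summed to 2048 CPM in 10x and 1796 in Parse. Higher in 10x were the mesothelial (2451 and 404), adipocyte (5882 and 2833) and macrophage (471 and 281) lists. Lower in 10x were the endothelial (827 and 1639), pericyte and smooth muscle (137 and 942), lymphocyte (26.7 and 244) and Schwann (13.7 and 50.1) lists. Msln was at 566 and 13.9 CPM, a ratio of 40.7. The part of these cell types in the differences was not tested. A single 10x nucleus of 5014 UMIs held 57 of the 418 Pi16 UMIs and 34 of the 153 Dcn UMIs, and without it Pi16 was at 293 CPM and Dcn at 96.6.

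**Figure D2:**
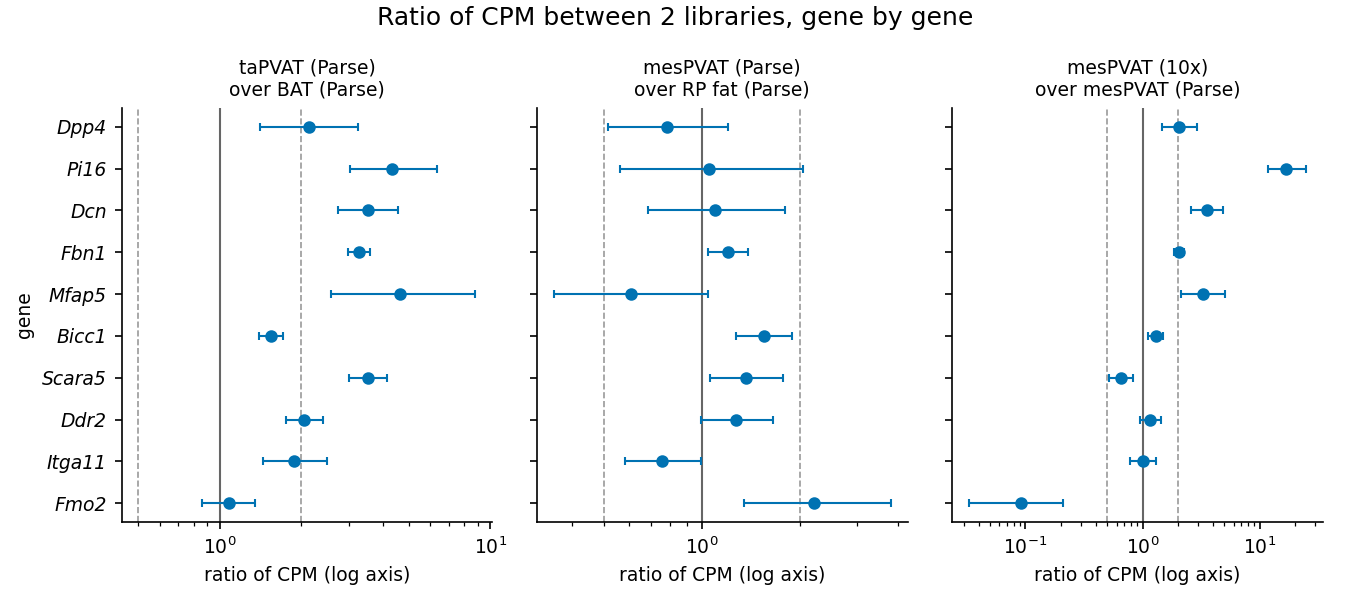
Ratio of CPM between pairs of rat libraries for each of the 10 genes, on log axes, with the solid line at 1 and dashed lines at 2-fold either way. Points are ratios and bars are exact 95% intervals for counting error only. All 10 points lie right of 1 for taPVAT over BAT, with a median of 2.70, most lie near 1 for mesPVAT over RP fat, and Pi16 (17.0) and Fmo2 (0.0923) stand at the 2 ends for 10x over Parse.

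The other comparisons share libraries with those above, and cross sequencing depth, isolation steps or species, so they are given as values. In taPVAT against Parse mesPVAT, 0 of the genes were 2-fold higher and 2 were lower, Dpp4 (0.363) and Itga11 (0.323), beside 10.9% and 39.5% of all 17000 genes, and 1 was lower by the mean of CPM per nucleus. In cow WAT against taPVAT, 6 were higher and 1 lower, beside 24.1% and 21.3% of 13082 genes matched by symbol. Mfap5 was 11.9-fold higher in the cow (95% interval 9.15 to 15.8), Ddr2 4.07-fold, Fbn1 3.50-fold, Dcn 2.93-fold, Itga11 2.55-fold and Scara5 2.50-fold, and Fmo2 had a ratio of 0.0976. By the mean of CPM per nucleus, 3 were higher in the cow instead of 6. The share over all genes was not computed by that mean, here or for taPVAT against Parse mesPVAT. In cow WAT against Parse mesPVAT, 5 were higher and 2 lower (Dpp4 0.310, Fmo2 0.0543), beside 16.4% and 30.7%. Against RP fat, 5 were again higher and 2 lower (Dpp4 0.243, Fmo2 0.121), beside 19.3% and 31.1%. Dcn, Fbn1, Mfap5, Ddr2 and Scara5 were past 2-fold higher in the cow in each of these 3 comparisons. Itga11 was lower in the cow than in Parse mesPVAT (0.821, 95% interval 0.689 to 0.985) and RP fat (0.622, 0.504 to 0.775). Dpp4 had a ratio of 0.855 against taPVAT, and its interval held 1.

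To see which nuclei held these genes, each nucleus was given to the cell type whose markers had the most UMIs in it, from 8 lists that hold none of the 10 genes, with at least 2 UMIs and no tie. Such a group is called stromal-like, endothelial-like and so on. Stromal-like nuclei numbered 321 in 10x mesPVAT, 364 in Parse mesPVAT, 278 in RP fat, 267 in taPVAT, 866 in cow WAT and 120 in BAT. The groups are thin where depth was low: 55.1%, 42.9% and 52.2% of stromal-like nuclei in the first 3 of these had just the minimum of 2 marker UMIs, against 3.23% to 6.74% in the other 3. Between 51.8% and 76.9% of nuclei stayed ungrouped in these 3 libraries, and 5.00% in BAT. The 10 genes and the lists were chosen with earlier results of these data known. The concentration of the genes in stromal-like nuclei is therefore not independent evidence.

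Summed over the 10 genes, the level in stromal-like nuclei was 15.2 times that in nuclei of the other groups in BAT (95% interval 13.8 to 16.7), 12.3 times in taPVAT, 11.0 times in 10x mesPVAT, 4.78 times in cow WAT, 2.96 times in Parse mesPVAT and 1.89 times in RP fat (1.53 to 2.35). Fbn1 was at 4613 CPM in stromal-like nuclei of 10x mesPVAT, 917 in Parse mesPVAT, 638 in RP fat, 2456 in taPVAT, 2215 in cow WAT and 1477 in BAT, and its ratio over the other groups was between 2.82 (RP fat) and 23.6 (BAT). It was not confined to them. In cow WAT a UMI of Fbn1 was seen in 80.5% of stromal-like nuclei (median 3441 UMIs), in 67.2% of endothelial-like nuclei (median 4097) and in 54.5% of adipocyte-like nuclei (median 6568), against 32.0% of 25 lymphocyte-like nuclei (median 3177). In taPVAT the shares were 60.7% (median 1031), 18.5% (median 929) and 13.1% of adipocyte-like nuclei (median 1983.5).

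Dcn, Mfap5, Ddr2, Scara5 and Itga11 followed Fbn1 in taPVAT, BAT and 10x mesPVAT. Their ratios of stromal-like over other nuclei in taPVAT were 14.5 for Dcn, 21.9 for Mfap5, 14.1 for Ddr2, 12.6 for Scara5 and 10.5 for Itga11. In BAT they were 21.7, 18.0, 27.6, 16.4 and 15.6, and in 10x mesPVAT 29.7, 10.9, 11.4, 14.1 and 24.1. In cow WAT they were 5.38, 7.43, 2.77, 6.12 and 4.59. In Parse mesPVAT they were 2.61, 2.35, 2.81, 4.21 and 3.58, and the interval of Mfap5 held 1. In RP fat they were lower, at 1.59, 1.56, 2.05, 0.716 and 1.14, and all 5 of those intervals held 1.

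**Figure D3:**
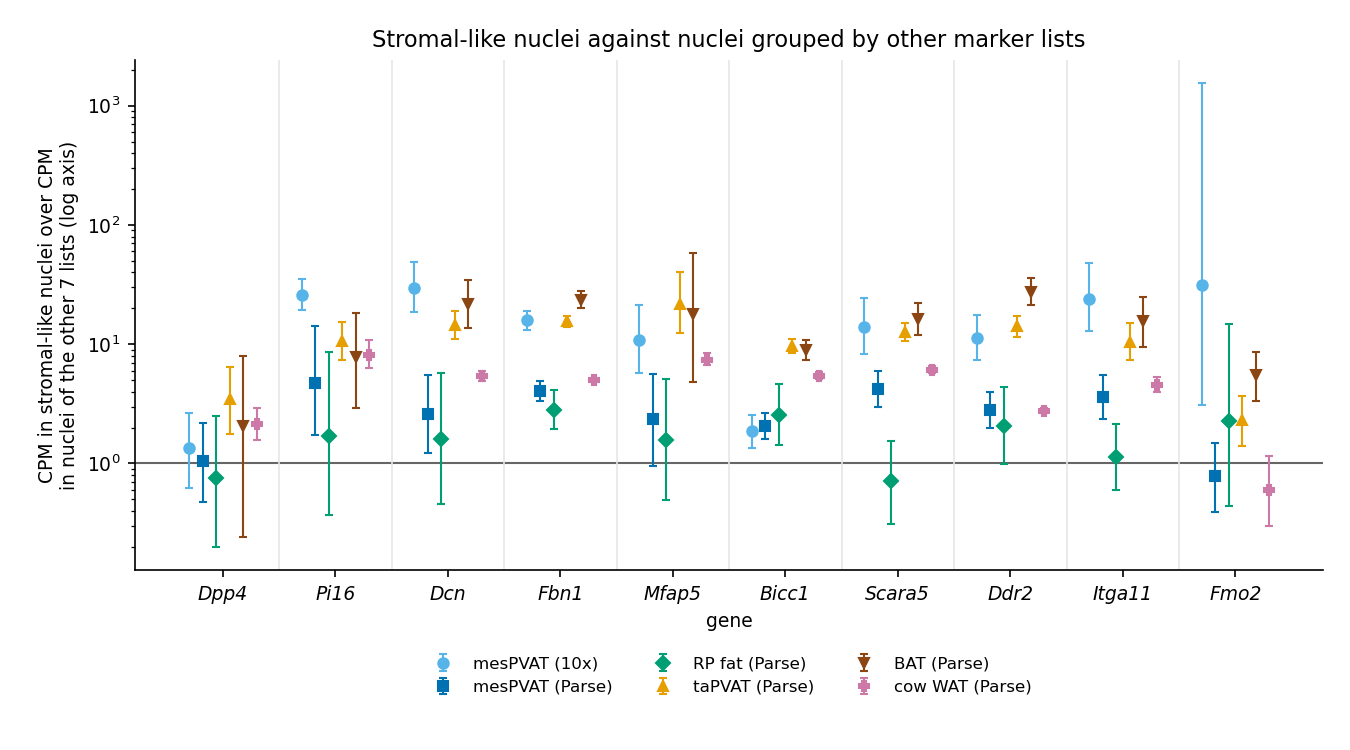
Level of each gene in stromal-like nuclei divided by its level in nuclei of the other 7 groups, for each library, on a log axis with a line at 1. Points are ratios within 1 library and bars are exact 95% intervals for counting error only. For Fbn1 the points run from 2.82 in RP fat to 23.6 in BAT, and those of Dpp4 lie closer to 1, from 0.759 to 3.48.

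In both mesPVAT libraries and in taPVAT, Dpp4 was higher in mesothelial-like than in stromal-like nuclei. In 10x mesPVAT, 453 mesothelial-like nuclei held 49 of its 92 UMIs, at 376 CPM (95% interval 278 to 497), and 321 stromal-like nuclei held 10, at 119 CPM (57.2 to 219). A UMI of Dpp4 was seen in 8.39% of these mesothelial-like nuclei (median 195 UMIs) and 1.87% of the stromal-like (median 177). The order rests on few UMIs in Parse mesPVAT (236 CPM from 7 UMIs, against 36.4) and taPVAT (165 CPM from 3 UMIs, against 37.7). In cow WAT, Dpp4, which is also the T cell surface protein CD26, was at 125 CPM in 25 lymphocyte-like nuclei (10 UMIs) and at 16.0 CPM in stromal-like nuclei (109 UMIs).

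Pi16 was concentrated in stromal-like nuclei. In 10x mesPVAT it was at 2312 CPM there, with a UMI in 16.2% of nuclei, against 94.4 CPM and 2.33% in adipocyte-like nuclei (median 228.5 UMIs), and its ratio over the other groups was 25.8 (95% interval 19.2 to 35.1). Of the 194 Pi16 UMIs in these stromal-like nuclei, 57 came from the single nucleus of 5014 UMIs. Ungrouped nuclei held another 165 of the 418 Pi16 UMIs of the library. The ratio was 10.7 in taPVAT, 7.86 in BAT, 8.15 in cow WAT, 4.75 in Parse mesPVAT and 1.71 in RP fat, where the interval held 1. Pi16 and Dpp4, set as one type, thus had their highest levels in different groups in 10x mesPVAT.

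Bicc1 was shared between stromal-like and mesothelial-like nuclei. In 10x mesPVAT it was at 944 CPM in mesothelial-like (123 UMIs) and 596 in stromal-like nuclei (50 UMIs), and in Parse mesPVAT at 472 (14 UMIs) and 378. In taPVAT the stromal-like nuclei had 1000.2 CPM and the mesothelial-like 769.7 (14 UMIs), with endothelial-like nuclei at 266. In BAT and cow WAT stromal-like nuclei were highest, at 825 and 613 CPM.

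Fmo2 was found in endothelial-like nuclei as well as stromal-like ones. In Parse mesPVAT it was at 113 CPM in endothelial-like nuclei (27 UMIs) and 43.1 in stromal-like (13 UMIs). In taPVAT the values were 102 (72 UMIs) and 59.3 (22 UMIs), and in BAT 96.6 (99 UMIs) and 132 (22 UMIs), with adipocyte-like nuclei lower in each of these libraries. In cow WAT, with 48 UMIs in all, it was at 6.94 CPM in macrophage-like nuclei (11 UMIs). There it was at 2.39 CPM in endothelial-like and 2.05 in stromal-like nuclei.

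**Figure D4:**
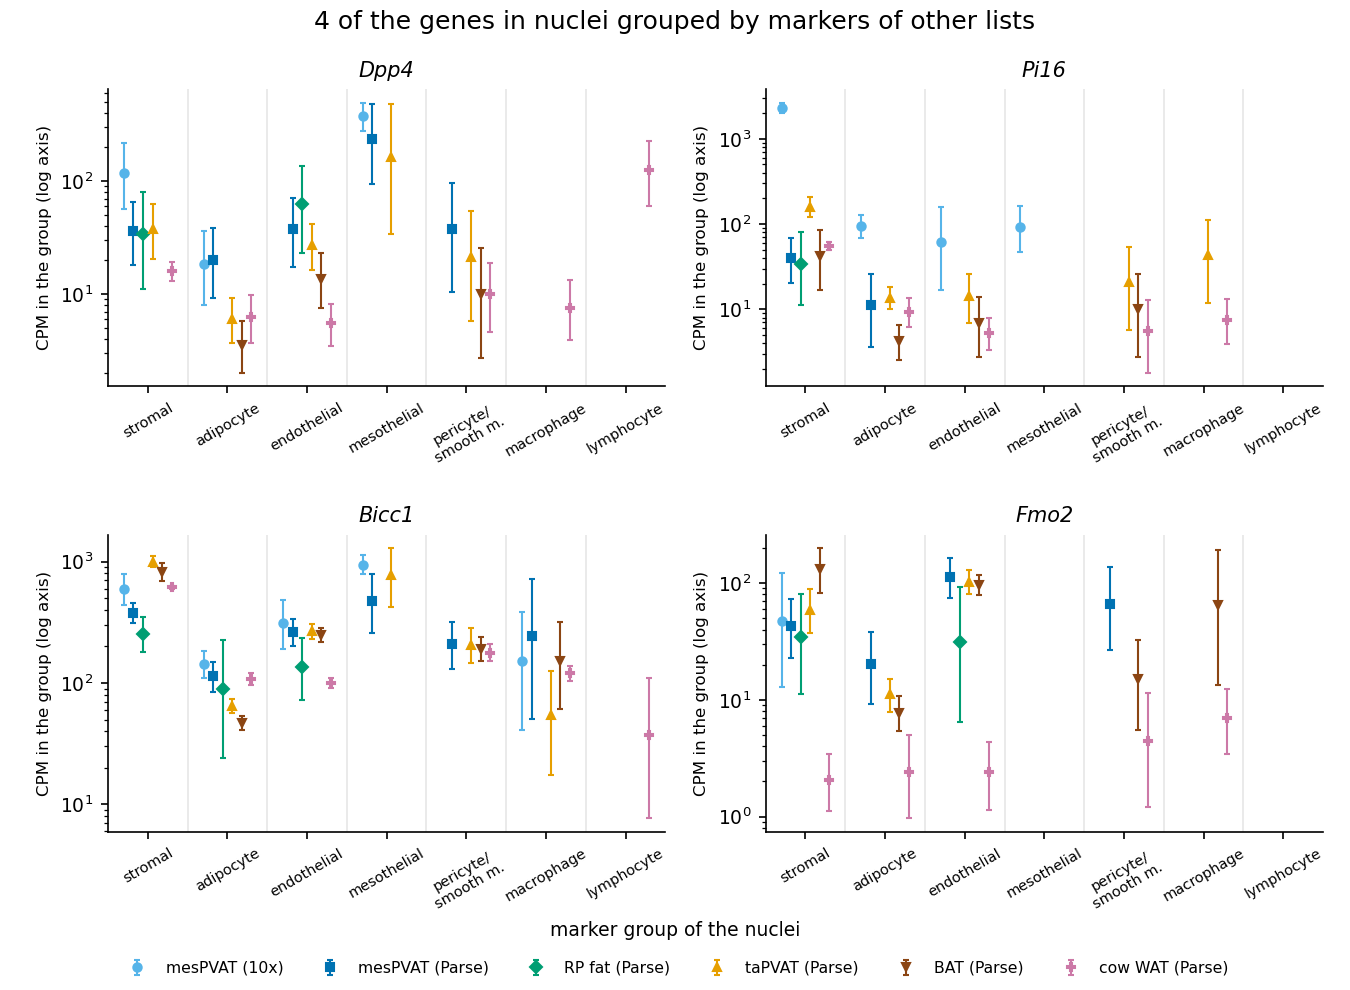
Level of Dpp4, Pi16, Bicc1 and Fmo2 in nuclei grouped by markers of 7 cell types, as CPM of the group on log axes, for groups with at least 3 UMIs of the gene. Points are single libraries and bars are exact 95% Poisson intervals for counting error only. The highest Dpp4 points are mesothelial-like (376 CPM in 10x mesPVAT), those of Pi16 stromal-like (2312 CPM in 10x mesPVAT), and Fmo2 has endothelial-like points between 96.6 and 113 CPM in Parse mesPVAT, taPVAT and BAT.

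Co-detection was the number of nuclei with a UMI of both genes, set against the number expected from the detection of each gene within 10 strata of nuclei of like total UMIs. For pairs among the other 8 genes, 535 nuclei were counted over the pairs against 165 expected in 10x mesPVAT (3.24 times), 1711 against 738.5 in taPVAT (2.32 times), 808 against 356 in BAT (2.27 times), 612 against 355 in Parse mesPVAT (1.73 times), 161 against 99.2 in RP fat (1.62 times) and 10238 against 8068 in cow WAT (1.27 times). The interval lay above 1 for 12 of 14 pairs with at least 3 nuclei expected in 10x mesPVAT, 12 of 22 in Parse mesPVAT, 2 of 13 in RP fat, 21 of 26 in taPVAT, 21 of 28 in cow WAT and 17 of 20 in BAT. These genes met in the same nuclei more often than the strata of depth gave, least clearly in RP fat. Summed over the 10 genes, co-detection with the endothelial gene Ptprb was also above expectation in BAT (1.38 times, 606 nuclei against 438). It was so in taPVAT (1.21), RP fat (1.14) and Parse mesPVAT (1.11) as well, and below expectation in 10x mesPVAT (0.879) and cow WAT (0.881). Pairs of genes outside these were not counted, so there is no share over all pairs. The pairs of a library share nuclei and are not independent of each other.

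Pi16 met the other 8 genes more often than expected in the sums of all 6 libraries. The ratio of counted to expected nuclei was 3.37 in 10x mesPVAT (209 against 62.0), 2.63 in taPVAT (221 against 83.9) and 2.30 in BAT (63 against 27.4). It was 2.20 in RP fat (12 against 5.45), 1.96 in Parse mesPVAT (33 against 16.9) and 1.42 in cow WAT (888 against 628). In RP fat 0 pairs had at least 3 nuclei expected, and 1 nucleus of 5611 UMIs held 7 of the 10 genes, Pi16 among them. In Parse mesPVAT 1 nucleus of 41374 UMIs held all 10. Such a nucleus is counted in several pairs. With Dcn it was 5.53 in 10x mesPVAT (24 nuclei, 95% interval 3.54 to 8.22) and 3.19 in taPVAT (24 nuclei), and with Fbn1 3.09 (77 nuclei, 2.43 to 3.86) and 2.49 (53 nuclei). For Dpp4 with the other 8 the ratios were 1.75 in 10x mesPVAT (46 against 26.3), 1.64 in Parse mesPVAT, 1.21 in RP fat, 1.53 in taPVAT, 1.29 in cow WAT and 1.92 in BAT. With Bicc1, Dpp4 had 19 nuclei in 10x mesPVAT against 6.86 expected (2.77 times).

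Dpp4 and Pi16 were rarely seen in 1 nucleus. They met in 31 nuclei of cow WAT against 17.5 expected, 1.77 times (95% interval 1.21 to 2.52), and in 3 nuclei of 10x mesPVAT, where 3.47 were expected. The counts were 2 in Parse mesPVAT, 0 in RP fat, 5 in taPVAT and 3 in BAT, against fewer than 3 expected in each, so a co-detection of these genes was not measurable there at this depth.

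With Plin1 the 10 genes met less often than expected in the sums of each library, at 0.510 times in 10x mesPVAT (130 nuclei against 255), 0.596 in Parse mesPVAT, 0.745 in taPVAT, 0.757 in BAT, 0.908 in RP fat and 0.967 in cow WAT (1451 against 1500.1). The interval lay below 1 for 6 of 9 genes in 10x mesPVAT, 7 of 10 in Parse mesPVAT, 7 of 10 in taPVAT and 4 of 10 in BAT, and for 0 genes in RP fat and cow WAT. Itga11 met Plin1 in 1 nucleus of 10x mesPVAT, where 15.0 were expected.

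Msln, which was measured in the rat libraries and was not analysed in the cow, met Dpp4 in 29 nuclei of 10x mesPVAT against 7.98 expected (95% interval of the ratio 2.43 to 5.22). A UMI of Msln was in 38.7% of nuclei with Dpp4 and 8.95% of those without. Bicc1 met Msln in 54 nuclei against 33.9 expected, 1.60 times (1.20 to 2.08), and Fbn1 in 45 against 59.3, or 0.759 times. Msln is on the list that made the mesothelial-like group, so this is the same measurement seen gene by gene.

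Ptprb met Fmo2 more often than expected in 3 rat libraries, in 32 nuclei of Parse mesPVAT against 16.8 expected (1.90 times), 76 of taPVAT against 31.5 (2.41 times, 95% interval 1.90 to 3.02) and 102 of BAT against 42.7 (2.39 times, 1.95 to 2.90). In BAT, 69.9% of nuclei with Fmo2 had a UMI of Ptprb, against 23.7% of those without. In cow WAT they met in 15 nuclei against 19.3 expected, and the interval held 1. Bicc1 met Ptprb at 1.39 times the expected number in taPVAT (1.18 to 1.62) and 1.53 times in BAT (1.33 to 1.76), and 0.790 times in cow WAT (0.700 to 0.888).

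**Figure D5:**
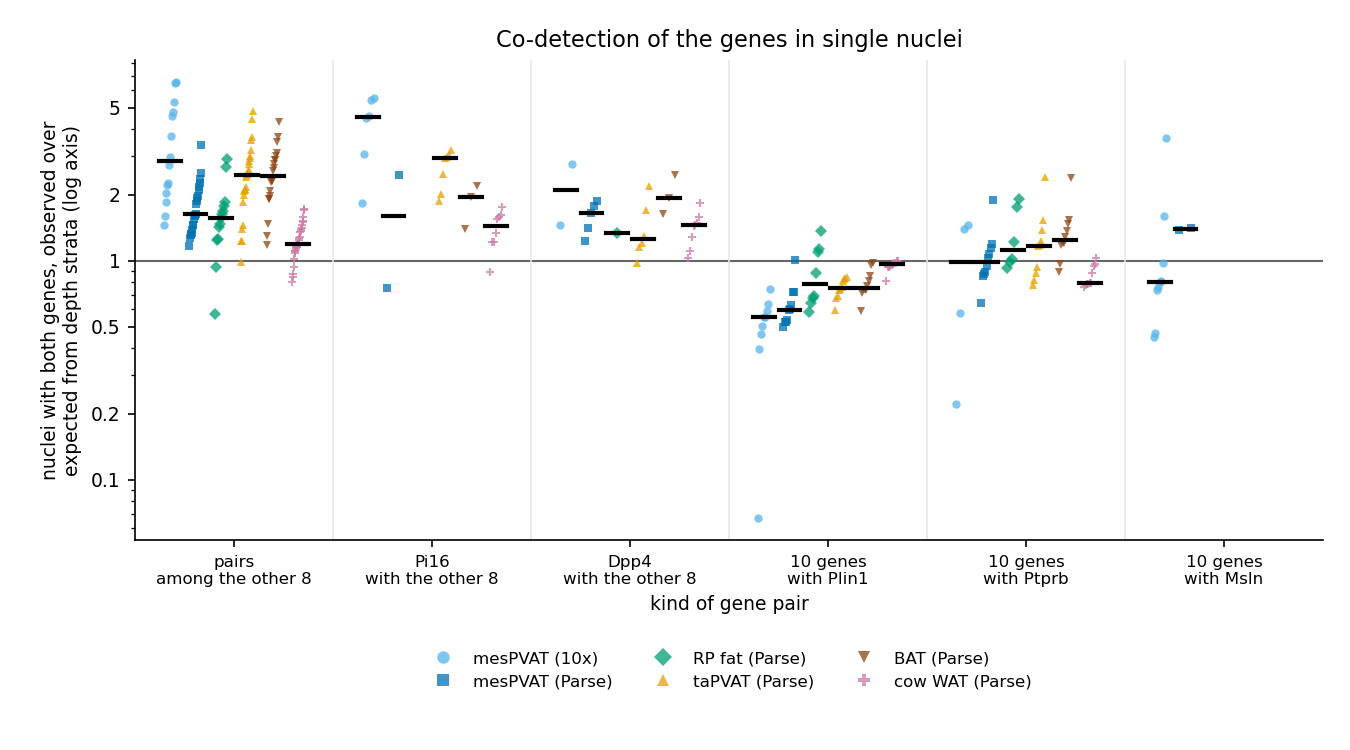
Nuclei with both genes of a pair, observed over expected within strata of total UMIs, by kind of pair and library, on a log axis with a line at 1, for pairs with at least 3 expected nuclei. Points are gene pairs and black bars are medians over the pairs of a library. Pairs among the other 8 genes lie mostly above 1, pairs with Plin1 mostly below it (medians 0.552 to 0.962), and single pairs stand out above 1, Fmo2 with Ptprb (2.41 in taPVAT) and Dpp4 with Msln in 10x mesPVAT.

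Nuclei with several of the genes were rare where depth was low. At least 3 of the 10 were seen in 103 nuclei of 10x mesPVAT (1.75%), 101 of Parse mesPVAT (3.34%), 24 of RP fat (0.856%), 265 of taPVAT (9.79%), 942 of cow WAT (41.0%) and 129 of BAT (4.78%). All 10 were seen together in 1 nucleus of BAT, with 3630 UMIs, and in 1 of Parse mesPVAT, with 41374 UMIs, the largest of that library.

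Among stromal-like nuclei, those with Dpp4 or Pi16 were set beside those without. In cow WAT (173 nuclei against 693) Fbn1 was 1.90-fold higher in nuclei with Dpp4 or Pi16 (95% interval 1.84 to 1.96), Dcn 1.51-fold, Mfap5 1.49-fold and Itga11 1.42-fold, and Bicc1 had a ratio of 1.10. With the study's filters on cow nuclei (117 against 623) Fbn1 was 2.67-fold higher (2.55 to 2.80). Dcn was then 1.71-fold, Mfap5 2.13-fold and Itga11 1.98-fold higher, and Bicc1 had a ratio of 0.982. In taPVAT (41 against 226) Fbn1 was 2.07-fold higher (1.81 to 2.37) and Scara5 1.37-fold, and Dcn (1.09), Ddr2 (0.956) and Bicc1 (0.881) had intervals that held 1. Markers of other cell types were also higher in these nuclei, Plin1 at 1.83-fold in taPVAT (1.32 to 2.51) and Ptprb at 1.66-fold in cow WAT (1.40 to 1.95), while Plin1 was lower in cow WAT (0.804). Their part in the ratios was not tested. In 10x mesPVAT (56 against 265) Dcn was 6.88-fold higher (4.09 to 12.1), Ddr2 3.64-fold and Fbn1 1.52-fold. With the study's filters on nuclei, which removed the nucleus of 5014 UMIs and others, Dcn was 3.18-fold higher, Ddr2 4.80-fold, and Fbn1 1.302-fold with an interval that held 1 (0.982 to 1.71). In Parse mesPVAT (16 against 348) the ratios ran the other way, with Fbn1 at 0.2402 (0.150 to 0.369), Scara5 at 0.340 (0.157 to 0.659), Itga11 at 0.404 and Bicc1 at 0.531. The 16 nuclei included that of 41374 UMIs, and with the study's filters (14 against 346) Fbn1 was at 0.912 with an interval that held 1. Nuclei with Dpp4 or Pi16 were deeper in each library but Parse mesPVAT, where the medians were 420.5 and 427.5 UMIs. The medians were 259 against 163 in 10x mesPVAT, 1926 against 950 in taPVAT and 7130 against 2879 in cow WAT. They were 493.5 against 396.5 in RP fat and 2698.5 against 1026 in BAT. Matched for depth within the stromal-like nuclei, Fbn1 was seen together with Dpp4 or Pi16 1.07 times the expected number in 10x mesPVAT. The ratio was 1.07 in taPVAT and 1.08 in cow WAT, and all 3 intervals held 1. In cow WAT 166 of the 173 nuclei with Dpp4 or Pi16 had Fbn1, with 154 expected, so that ratio had little room to rise. There the intervals lay above 1 for Mfap5 (1.203 times) and Itga11 (1.244 times). Those of Dcn, Bicc1, Scara5, Ddr2 and Fmo2 held 1. These counts are of detection, and the ratios of level were not tested at matched depth. In RP fat (10 nuclei) and BAT (4) the nuclei with Dpp4 or Pi16 were too few to describe.

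The genes most like these were ranked by their level in nuclei rich in the markers over that in nuclei with none, separately for Dpp4 and Pi16 and for the other 8. Rich meant at least 1 UMI for Dpp4 and Pi16 together and at least 2 UMIs for the other 8 together, so the cutoffs differ. For the other 8, the top 5 were Gfpt2 (15.5 times), Tmeff2, Fndc1, Col14a1 and Uap1 in 10x mesPVAT, Gfpt2 (20.5 times), C7, Boc, Pdgfra and Ms4a4c-ps1 in taPVAT, C7, Igfbp3, Medag, Tnnt3 and Dpt in BAT, and Ogn, Cpxm1, Myoc, Tnfaip6 and Pdgfra in cow WAT. For Dpp4 and Pi16 they were Col14a1 (5.79 times), Gpc3, Naaladl2, Lhfpl6 and Sema3c in 10x mesPVAT, Cd55 (8.40 times), Fndc1, Gfpt2, Adamts16 and Nova1 in taPVAT, Gfpt2, Wdfy4, Trerf1 and Evc2 among those in BAT, and Htra3 (6.86 times), Dact2, Gfpt2, Cfb and Mfap2 in cow WAT. Gfpt2, which makes glucosamine phosphate for glycan synthesis, was in 5 of these 8 lists, and Pdgfra, a growth factor receptor on stromal progenitors, in 2. The Ogn ratio in cow WAT rests on 447 UMIs against 1. For Dpp4 and Pi16 in BAT, the rich nuclei numbered 66, and Trerf1 and Evc2 had 10 UMIs each in them. Rich nuclei were deeper than those with none in every list, here with a median of 3259.5 UMIs against 1693.

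Of the other stromal genes, 10 of the early progenitor type and 12 of later or other stromal types had been listed, and 1 of the later ones was not analysed here. Between taPVAT and BAT, 2 of 10 early genes were 2-fold higher, Cd55 most at 3.05-fold, and 1 of 8 tested later genes, Icam1, at 2.37-fold, with 0 lower in either list. Over all genes, 4.69% were higher and 0.706% lower. Between Parse mesPVAT and RP fat 0 of 10 early and 1 of 7 later genes were 2-fold higher and 0 lower, beside 6.06% and 7.52% of all genes. Between the libraries of mesPVAT made with 10x and Parse, 3 of 10 early genes were higher and 1 lower, and 3 of 7 later genes higher and 1 lower. These counts stand beside 24.2% of all genes higher and 29.1% lower. The median ratio of early genes was 1.38 for taPVAT over BAT, below the 2.70 of the 10 markers, and that of all genes was 1.07.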

How the data were processed

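Single-nucleus libraries from 4 fat depots of male rats and 1 of a cow were analysed, 1 library per condition. The deposited values were counts: the authors' UMI counts per gene and nucleus, made with Cell Ranger 7.1.0 for the 10x library and with split-pipe for the Parse libraries, restricted to barcodes called as nuclei. The 10x library was aligned to another rat build than GRCr8, which was used for the Parse rat libraries. Depth ranged from 845316 to 16827260 UMIs a library.

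From these, UMIs were summed over all deposited nuclei and scaled to CPM. Shares were also taken after thinning nuclei to 200 UMIs (seed 24). A ratio needed at least 30 UMIs in the libraries compared together, and 2-fold was the threshold. Cow genes were matched to rat genes by symbol. No doublet caller was run and no free RNA was removed. Nuclei were grouped with 59 markers on 8 lists. Like genes needed at least 50 UMIs and a UMI in at least 10% of the marker-rich nuclei, and the 5 with the largest ratio were named, except 1 gene of the BAT library that is not reported here. The 10 genes and their 3 partners are named throughout, and other stromal genes by counts and their highest ratios. The genes and lists were chosen with earlier results of these data known. The scripts were tested on simulated data. Promoter windows came from RefSeq GRCr8. Python 3.11.15, numpy 2.4.6, scipy 1.17.1, pandas 2.3.3 and matplotlib 3.10.9 were used. Alternatives were the study's filters on nuclei (100 to 15000 UMIs, at most 4500 genes and 3% mitochondrial UMIs, within 5 median absolute deviations), nuclei of at least 500 UMIs, other totals, a mean of CPM per nucleus, single sublibraries, other thinning depths, other strata and stricter detection.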

Additional observations from a re-analysis of the deposited data

How the results depend on the processing

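No paired analysis was possible because each condition was 1 library, and no library could be left out of a group for the same reason. The summary values were levels, shares, co-detection and stromal-like ratios summed over genes, and counts of genes past 2-fold. Of these, 133 held under other settings and 60 moved. Among the remaining values, which include the ratios of single genes, 1087 held, 357 moved and 6 turned in direction. For values with a counting interval, held means a move smaller than that interval. The cause was not tested for any of these unless the setting removes nuclei or UMIs by construction. For the summed level of the 10 genes, the study's filters on nuclei gave 1829 CPM in 10x mesPVAT and 2329 in cow WAT. Nuclei of at least 500 UMIs gave 2963 in 10x mesPVAT, 1063 in Parse mesPVAT and 901 in RP fat. Totals without the top gene and mitochondrial genes gave 1240.1 in Parse mesPVAT, 982 in taPVAT, 2804 in cow WAT and 411 in BAT. The mean of CPM per nucleus gave 2009.5 in 10x mesPVAT, 1281 in Parse mesPVAT, 1054 in taPVAT, 2185 in cow WAT and 447 in BAT. Single sublibraries gave 782 and 947 in taPVAT, 332 and 386 in BAT, and 2630.1 and 2369 in cow WAT. BAT stayed lowest in all of these.

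Counts of genes past 2-fold moved in a few settings, for which the share over all genes was not computed. Between Parse mesPVAT and RP fat, nuclei of at least 500 UMIs gave 0 higher and 1 lower. Between the mesPVAT libraries, the study's filters and the mean per nucleus each gave 3 higher. By the mean per nucleus, 1 gene was lower in taPVAT than in Parse mesPVAT and 3 were higher in cow WAT than in taPVAT. The share of nuclei with any of the 10 genes rose with depth by construction, to 24.8%, 26.2%, 23.3%, 17.7%, 11.0% and 33.3% at 300 UMIs (10x mesPVAT, Parse mesPVAT, RP fat, taPVAT, BAT, cow WAT) and 35.1%, 36.4%, 33.4%, 24.9%, 14.6% and 43.0% at 500. With at least 2 UMIs required it was 6.38%, 3.88%, 2.93%, 3.88%, 1.04% and 8.71%.

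Co-detection among the other 8 genes with at least 2 UMIs of each was 8.59 times the expected in 10x mesPVAT, 4.23 in Parse mesPVAT, 4.60 in taPVAT, 1.46 in cow WAT and 5.63 in BAT, with no value for RP fat. With 5 strata it was 2.43 in taPVAT, 1.301 in cow WAT and 2.47 in BAT, without the deepest nuclei 2.61, 1.33 and 2.67, and with the study's filters 1.39 in cow WAT. The ratio of stromal-like over other nuclei was 14.6 in 10x mesPVAT with at least 3 marker UMIs, and 9.95, 3.86 and 6.78 in 10x mesPVAT, Parse mesPVAT and cow WAT with the study's filters. Direction turned in 6 values of single genes. Scara5 in taPVAT over Parse mesPVAT was 1.02 with nuclei of at least 500 UMIs, and Bicc1 in cow WAT over Parse mesPVAT 0.961 by the mean per nucleus. Under the study's filters, chosen for this after seeing the data, stromal-like nuclei with over without Dpp4 or Pi16 had ratios of 1.14 for Bicc1, 2.34 for Scara5 and 1.35 for Ddr2 in Parse mesPVAT, where the filters removed the nucleus of 41374 UMIs, and 0.982 for Bicc1 in cow WAT.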

Other observations

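Among the early progenitor genes that are not among the 10, Ackr3, a scavenging chemokine receptor, was at 1491 CPM in 10x mesPVAT (1845 UMIs) and 14.5 in Parse mesPVAT (24 UMIs), and between 11.8 and 47.1 CPM in the other 4 libraries. Wnt2, a secreted signalling protein, had 0 UMIs in 10x mesPVAT, and 54 in Parse mesPVAT, 42 in RP fat and 175 in cow WAT. Of the later stromal genes, F3, which encodes tissue factor, was at 1337 CPM in 10x mesPVAT, 161 in BAT, 127 in taPVAT, 45.3 in Parse mesPVAT, 22.5 in cow WAT and 15.4 in RP fat. Ebf2, a transcription factor of brown fat lineage cells, was at 1183 CPM in BAT and 1165 in taPVAT, against 217 to 443 CPM in the other 4 libraries. Pericyte-like nuclei carried Fbn1 as well, at 471 CPM in taPVAT and 226 CPM in BAT. These genes beyond the 10 were chosen for mention after their values were seen.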
